A study of Mus musculus with 3 samples.

Results

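The peaks described here are remote intergenic binding sites of JMJD3 at which Smad3 was not listed. They come from ChIP-seq, in which DNA bound by a protein is pulled down with an antibody and sequenced, and enriched genomic intervals are listed as peaks. They were selected by 3 conditions on the deposited JMJD3 peak list. The peak midpoint lay more than 50 kb from the closest transcription start site (TSS), it lay outside the body of that closest gene, and the peak shared no base pair with any peak of the Smad3 list. Of 63154 JMJD3 peaks, 20083 lay beyond 50 kb of a TSS, 14528 of these were intergenic, and 3624 of the intergenic peaks shared nothing with Smad3. The 3624 peaks were 5.74% of the JMJD3 list and covered 1.4 Mb.

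The cells were wild-type mouse neural stem cells from the cerebral cortex of E12.5 embryos, kept dividing with EGF at 20 ng/ml and FGF at 10 ng/ml. All libraries carried the label TGFb, which was used at 5 ng/ml, and the series text gives 30 minutes for both immunoprecipitations. There was 1 JMJD3 library, 1 Smad3 library, which listed 98086 peaks, and 1 library of input DNA, which was not analysed here. Intervals given below are exact (Clopper-Pearson) 95% intervals for counting error only, since no library was repeated, no untreated library was used, and neighbouring peaks are not independent. No value below therefore shows an effect of TGFb, no test between classes of peaks was made, and differences are given as values side by side.

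JMJD3, the product of Kdm6b, removes methyl groups from lysine 27 of histone H3, a mark that Polycomb complexes place on silent chromatin. Smad3 is the DNA-binding factor that enters the nucleus when TGF-beta receptors are active. Sites far from any gene start often lie in enhancers, which can act on genes at a distance, so the closest gene named for a peak is a landmark and not a known target.

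Some of these peaks lay closest to microRNA genes, whose products are short RNAs that pair with messenger RNAs through a seed at bases 2 to 8. Of the 3624 peaks, 109 named 1 of 48 microRNA genes as closest, and 23 of those genes had a single such peak. The 5 microRNA genes with 5 or more peaks were Mir582, Mir23b, Mir181a-1, Mir1904 and Mir100. Their mature sequences from RefSeq are shown to identify these microRNAs (build GRCm38.p6, 40 of the 48 genes matched by symbol). The selection looked only at the body of the closest gene. A peak counted at a short microRNA gene may therefore lie inside a longer gene. Capitals mark the seed, and no seed was shared among the 8 sequences shown, which do not include miR-23b-3p.
mmu-miR-582-5p: aUACAGUUguucaaccaguuac
mmu-miR-582-3p: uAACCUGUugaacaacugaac
mmu-miR-23b-5p: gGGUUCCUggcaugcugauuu
mmu-miR-181a-5p: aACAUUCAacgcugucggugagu
mmu-miR-181a-1-3p: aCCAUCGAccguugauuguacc
mmu-miR-1904: gUUCUGCUccucuggagggagg
mmu-miR-100-5p: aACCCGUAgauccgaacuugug
mmu-miR-100-3p: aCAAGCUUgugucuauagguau

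At Mir582 there were 7 JMJD3 peaks without Smad3 between 109788881 and 110390300 on chromosome 13 (mm9), beside 18 remote peaks with Smad3. Its neighbour Mir1904 had 5 and 9. At Mir181a-1 on chromosome 1, all 5 peaks lay upstream, 71.3 to 283 kb away. From the most distant to the nearest, their widths were 520, 580, 571, 211 and 490 bp, and their nearest Smad3 peaks were 9.23, 1.31, 52.0, 3.09 and 2.59 kb away. The first 3 stood alone and the last 2 were joined to each other. Mir100, which lies in a cluster with Mir125b-1, had 5 peaks upstream, beside 16 with Smad3, and only 2 of the 5 lay more than 1 kb from a Smad3 peak. Counted by RefSeq gene type, peaks closest to microRNA genes made up a small share of every remote class, 2.98% (2.45 to 3.59) of remote JMJD3 peaks without Smad3, 2.85% (2.55 to 3.18) of those with Smad3 and 2.60% of remote Smad3 peaks without JMJD3.

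Remote JMJD3 peaks lacked Smad3 more often than JMJD3 peaks as a whole, by a margin wider than the counting intervals. The 3624 peaks were 24.9% (24.2 to 25.7) of the 14528 remote intergenic JMJD3 peaks, against 18.6% (18.3 to 18.9) of all JMJD3 peaks. Both shares rest on the overlap that the selection used, so they are descriptions. Within the remote set the share went from 23.6% (22.5 to 24.8) at 50 to 100 kb from a TSS to 24.5% at 100 to 200 kb, 26.3% at 200 to 500 kb and 30.3% (27 to 33.8) at 500 to 1000 kb. Beyond 1000 kb it was 31.4% (23.1 to 40.5) of 118 peaks, an interval too wide to separate it from any other class. Neighbouring classes had overlapping intervals, and the 50 to 100 kb and 500 to 1000 kb classes did not.

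**Figure D1:**
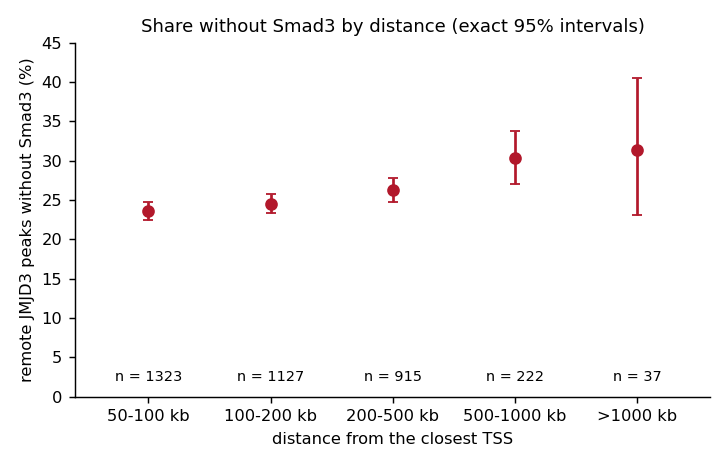
Share of remote intergenic JMJD3 peaks that share no base pair with Smad3 (y axis, percent) in 5 classes of distance from the closest TSS (x axis); points are shares, bars exact 95% intervals for counting error, and n the number of peaks without Smad3. The share lies at 23.6% nearest the TSS and at 30.3% between 500 and 1000 kb.

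The selected peaks lay on both sides of the closest gene, slightly more often upstream. The selection had dropped 5555 JMJD3 peaks that lay inside the closest gene, and so downstream of its TSS. The part of that step in the upstream shares was not tested. Upstream of the TSS lay 1921 (53.0%, 51.4 to 54.6) and past the gene end 1703. The same share for remote JMJD3 peaks with Smad3 was 52.8% (51.8 to 53.7), and for remote Smad3 peaks without JMJD3 53.5% (52.3 to 54.6). Distances from the TSS had a median of 133 kb and quartiles of 78.8 and 251 kb, against a median of 123 kb for remote peaks with Smad3. Although each lay outside its closest gene, 736 (20.3%) had a midpoint inside the span of some other gene named in the files, whose start was farther away. The share was 21.9% for remote peaks with Smad3.

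Most of these peaks had a Smad3 peak within 100 kb, in a Smad3 list of 98086 peaks. The edge-to-edge gap to the nearest Smad3 peak had a median of 9.41 kb and quartiles of 1.30 and 30.5 kb. On the autosomes the median was 8.90 kb, against 4.37 kb for all autosomal JMJD3 peaks without Smad3, remote or not. Gaps for randomly placed peaks were not computed, so nearness beyond the density of the Smad3 list was not tested. Within 100 bp lay 396 peaks (10.9%, 9.93 to 12), 8 of which touched a Smad3 peak, within 1 kb 845 (23.3%), within 10 kb 1854 (51.2%) and within 100 kb 3381 (93.3%). The mirror-image class, remote Smad3 peaks without JMJD3, had 4.43% (3.99 to 4.91) within 100 bp of a JMJD3 peak, 17.1% within 1 kb and 50.1% within 10 kb. The shares of the classes differed by more than their counting intervals up to 1 kb, and their intervals overlapped from 10 kb on. The Smad3 list was the longer of the lists, and its part in these gaps was not tested. A JMJD3 peak shared with Smad3 lay within 10 kb of 1441 selected peaks (39.8%) and within 100 kb of 3173 (87.6%).

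**Figure D2:**
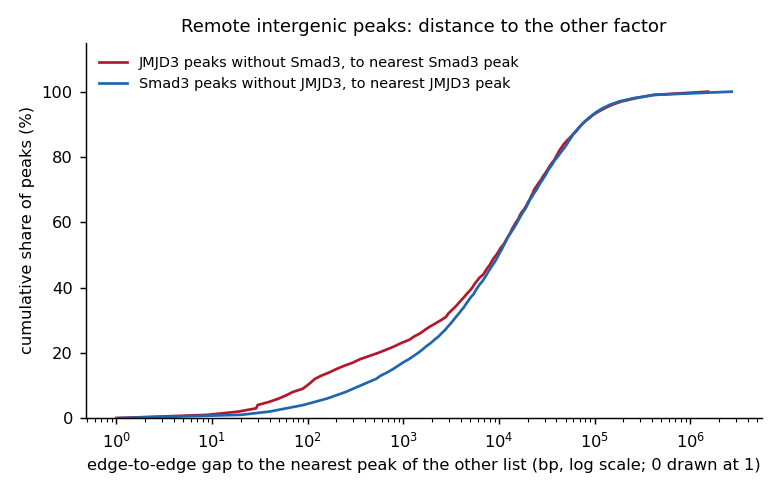
Cumulative share of peaks (y axis, percent) by edge-to-edge gap to the nearest peak of the other factor (x axis, bp, log scale, 0 drawn at 1), for remote intergenic JMJD3 peaks without Smad3 (red) and remote intergenic Smad3 peaks without JMJD3 (blue). At 100 bp the red curve is at 10.9% and the blue at 4.43%; at 10 kb they are at 51.2% and 50.1%.

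The peaks nearest to Smad3 were mostly pieces of longer JMJD3 regions. Peaks of the JMJD3 list at most 10 bp apart were joined into regions, and 1223 of the 3624 peaks (33.7%, 32.2 to 35.3) were joined to another. For 492 (13.6%) the region also held a JMJD3 peak that did share sequence with Smad3. Of the 388 peaks at 1 to 100 bp from Smad3, 334 (86.1%) were joined, and of the 1527 at 10 to 100 kb, 351 (23%). Median widths were also lowest beside Smad3. The median was 240 bp (230 to 251) at 1 to 100 bp from Smad3, 350 bp at 100 bp to 1 kb and 420 bp (410 to 430) at 1 to 10 kb, and it was 410 bp beyond 100 kb. The 2779 peaks (76.7%) more than 1 kb from any Smad3 peak had a median width of 420 bp and lay closest to 1566 genes.

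Peaks without Smad3 were narrower than remote peaks with it. Their median width was 400 bp (391 to 401) with quartiles of 260 and 480 bp, against 530 bp (521 to 531) with quartiles of 380 and 690 bp. Single peaks, joined to no other, had medians of 440 and 600 bp, and peaks without Smad3 joined only to others of their kind had a median of 241 bp. A wider peak has more bases that can be shared, so width is not independent of the selection and was not tested. Among single remote JMJD3 peaks, 60.1% (54.8 to 65.2) of those 201 to 300 bp wide lacked Smad3, 45.8% of those 401 to 500 bp, 25.1% of those 501 to 600 bp, 8.99% of those 601 to 800 bp and 1.38% (0.774 to 2.26) of those wider than that. Only 17 of 1515 remote JMJD3 peaks wider than 800 bp were without Smad3. The files hold no peak height, so how width relates to enrichment was not tested.

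**Figure D3:**
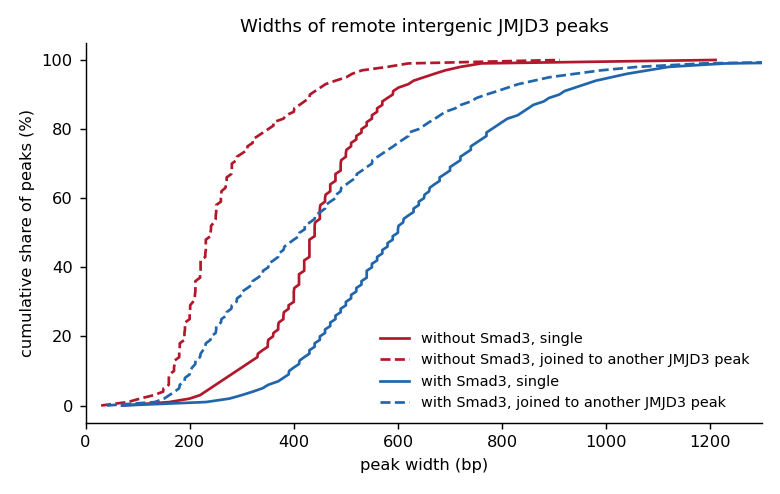
Cumulative share (y axis, percent) of remote intergenic JMJD3 peaks by width (x axis, bp), for peaks without Smad3 (red) and with Smad3 (blue), each split into single peaks (solid) and peaks joined to another JMJD3 peak (dashed). Single peaks have median widths of 440 bp without and 600 bp with Smad3.

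The widest region made only of such peaks among named genes was 1470 bp long, held 3 peaks and lay 456 kb upstream of Zmiz1 on chromosome 14 (25821291 to 25822760). Zmiz1 encodes a coactivator of several transcription factors. It was followed by a region of 1260 bp upstream of Ppp1r12a, which encodes the targeting subunit of myosin phosphatase, and by the widest single peak, 1210 bp on chromosome 6 (31256341 to 31257550), 91.9 kb upstream of Mkln1. That peak lay 320 bp from a Smad3 peak and the Ppp1r12a region 180 bp from one, whereas the Zmiz1 region lay 12 kb away. Regions at Fut10, Il12b, Eif2a, Adamts9, Fgfr2, Klf5 and Tmem66 measured 1140, 1130, 1120, 1050, 1040, 970 and 960 bp. Of these, the Fut10 region had the most distant Smad3 peak, 71.5 kb away. Fgfr2, a receptor for the FGF on which these cells grow, had its region 119 kb upstream on chromosome 7 (137529311 to 137530350).

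A small group of peaks stood far from any other peak of either list. No other peak of either list lay within 50 kb of 348 (9.60%, 8.66 to 10.6) and within 100 kb of 142 (3.92%). The most isolated was a peak of 490 bp on chromosome 1 (104199001 to 104199490), 2466 kb upstream of the cadherin gene Cdh20, with its nearest Smad3 peak 1542 kb away. It was also the peak farthest from a TSS in the JMJD3 list. A peak of 501 bp upstream of Ptprd, which encodes a receptor phosphatase of synapses, had its nearest Smad3 peak 866 kb away. Next came peaks at Amy2b (834 kb), Crispld1 (799 kb), Bc1 (728 kb), Dppa4 (712 kb), Man1a (694 kb), Dpp10 (692 kb), Lrrc4c (651 kb) and Mir873 (647 kb). Lrrc4c, a netrin-G ligand gene, and Celf4, an RNA-binding protein gene, were also among those with the most distant peaks, 1850 and 2203 kb from the TSS. The Celf4 peak had a Smad3 peak 8.70 kb away.

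At the limits of the selection, peaks lay closely on both sides. Just inside the 50 kb limit were peaks of 251 bp at Cldn23 and 570 bp at Apba2, 50043 and 50044 bp upstream, and just outside it peaks at Slc16a9 and Cachd1, 49996 and 49991 bp upstream. Peaks at Tln2, Fam196a, Cpeb4 and Zfp706 touched a Smad3 peak with a gap of 0 bp and all belonged to joined regions, of 880, 1900, 1100 and 400 bp. Remote peaks at Eif4g3, Msl3l2, Pygo1 and Zfp366 shared 1 bp with Smad3 and so fell outside. Of the 10904 remote peaks with Smad3, 603 (5.53%) shared fewer than 100 bp.

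The 3624 peaks named 1852 closest genes, 11.3% of the 16428 genes named anywhere in the 2 lists. For remote peaks with Smad3 it was 2856 genes, or 17.4%. Of the 1852 genes, 1430 were also closest to a remote JMJD3 peak with Smad3, which is 77.2% of the first and 50.1% of the second set, and 251 had no other remote peak of either factor. A single peak without Smad3 lay at 1014 genes, 2 to 4 at 724 and 5 or more at 114.

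The gene with the most was Vmn2r121 on the X chromosome, which encodes a pheromone receptor of the vomeronasal organ. It was closest to 18 JMJD3 peaks without Smad3, 11 remote peaks with Smad3 and 5 remote Smad3 peaks without JMJD3. The 18 lay between 120739031 and 122028930, and 17 of them were more than 1 kb from a Smad3 peak. The adjoining clone-derived gene 4932411N23Rik had 13, 2 and 1. Vomeronasal receptor genes form families of near-identical copies, and no source used here says how reads with several matches in the genome were treated. The part of such reads in these peaks was not tested.

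Next came Sema6d, Enc1 and Adamts5. Sema6d, a transmembrane semaphorin that guides axons, had 16 peaks without Smad3, 15 of them upstream, over 55.8 to 834 kb, within a field of 38 peaks with both proteins and 27 of Smad3 alone. Enc1, a kelch protein of the early neural ectoderm, had 12, all past its end on chromosome 13 (98061281 to 98439350), beside 10 with Smad3. Of the remote JMJD3 peaks at Enc1 54.5% thus lacked Smad3, although 6 of the 12 lay within 1 kb of a Smad3 peak. Adamts5, a protease that cleaves aggrecan, had 12, all upstream, beside 9 with and 2 of Smad3 alone.

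Trib2, a pseudokinase gene, had 11 beside 22 with Smad3, and the zinc finger gene Zfp608 11 beside 56. At Zfp608 the share without Smad3 was 16.4%, and at Hrh4, a histamine receptor gene, with 10 beside 4, it was 71.4%. Both rest on few peaks at genes picked for their number of peaks without Smad3. No interval is given for them. H2afy3, Pik3r1 and Rps24 had 10, 10 and 9 beside 12, 18 and 18 with Smad3. Pik3r1 encodes the regulatory subunit of PI3 kinase and Rps24 a protein of the small ribosomal subunit. At Pik3r1 only 5 of the 10 lay more than 1 kb from a Smad3 peak.

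**Figure D4:**
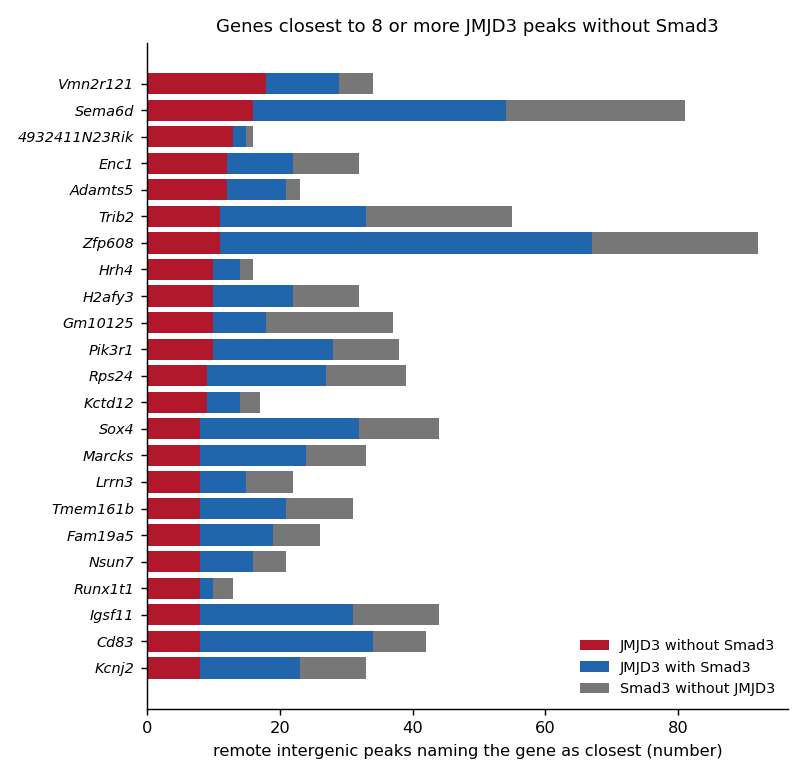
Number of remote intergenic peaks (x axis) naming each gene as closest, for the 23 genes with 8 or more JMJD3 peaks without Smad3 (red), stacked with blue bars for JMJD3 peaks with Smad3 and grey bars for Smad3 peaks without JMJD3. Sema6d and Zfp608 have 16 and 11 red beside 38 and 56 blue, and Runx1t1 has 8 beside 2.

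At 29 of the 114 genes with 5 or more of these peaks, they outnumbered the remote JMJD3 peaks with Smad3. This split was made after the values were seen. The 114 genes were picked by their number of peaks without Smad3, which by itself favours such an outcome. The same share over all genes with a remote JMJD3 peak is not given here. The genes below are therefore examples only. Runx1t1, which encodes a corepressor of the ETO family, had 8 beside 2 with Smad3 on chromosome 4. The 8 measured 500, 321, 170, 361, 230, 410, 440 and 230 bp, and their nearest Smad3 peaks were 62.4, 33.8, 33.7, 21.7, 21.4, 17.6, 27.6 and 138 kb away. The nearest Smad3 peak to any of them was thus 17.6 kb off, and 4 of the 8 formed pairs of joined peaks. Both proteins were listed at its own promoter.

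Kctd12, an auxiliary subunit gene of GABA-B receptors, had 9 beside 5, all past its end, 89.0 to 386 kb from the TSS. Widths ran from 180 to 640 bp, and gaps to Smad3 from 1.85 to 43.8 kb. Lrriq3 had 5 JMJD3 peaks and no remote peak of any other kind, between 154922841 and 155154410 on chromosome 3. Their nearest Smad3 peaks lay 166 to 397 kb away, so no Smad3 peak was listed over the whole stretch. Cacng3, which encodes a regulatory protein of AMPA receptors, had 5 beside 2, and Gfra1, a GDNF co-receptor gene, 5 beside 4.

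Gene lists were chosen with earlier results of these data known. They were described by the share of their genes that were closest to at least 1 such peak. The background is 11.3% of all genes named in the files, or 17.4% for remote JMJD3 peaks with Smad3. Genes with long intergenic flanks have more room for remote peaks of any kind. Each list's count of genes therefore stands beside that for remote peaks with Smad3. For some single genes the count with Smad3 is left out. How flank length enters the counts was not tested.

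Adhesion and guidance genes of neurons were well above that background for both kinds of peak. Of 52 synaptic adhesion genes named in the files, 26 (50%) were closest to a JMJD3 peak without Smad3 and 34 (65.4%) to one with Smad3. Over the whole list 70 peaks without Smad3 stood beside 183 with it. The share without was 27.7% (22.2 to 33.6), an interval that holds the 24.9% of the remote set. Lrrn3, Lsamp, Negr1 and Flrt2, picked for their number of such peaks, had 8, 6, 5 and 5 beside 7, 9, 5 and 3 with Smad3. Lrrn3 and Flrt2 encode leucine-rich repeat membrane proteins, Lsamp and Negr1 cell adhesion molecules of the immunoglobulin family. Of 37 axon guidance genes 16 (43.2%) had such a peak and 22 (59.5%) one with Smad3. Over this list the counts were 48 peaks without and 139 with Smad3, or 25.7% (19.6 to 32.6) without. After Sema6d came Efnb2, an ephrin, with 6, Nrp2, a semaphorin co-receptor, with 5, and Robo1, a Slit receptor, with 4, beside 12, 10 and 6 with Smad3.

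Of 28 cadherin and protocadherin genes 12 (42.9%) had such a peak and 18 (64.3%) one with Smad3. Over this list 22 peaks without Smad3 stood beside 58 with it, or 27.5% (18.1 to 38.6) without, an interval that holds 24.9%. The genes named next were picked for their number of peaks without Smad3. Pcdh7 had 4 beside 3, all 4 at least 40.2 kb from Smad3, and Cdh10 had 2 beside 1. Pcdh15, a protocadherin of hair cells, had 3 JMJD3 peaks upstream on chromosome 10 and no remote peak of another kind. They measured 260, 430 and 430 bp, and their nearest Smad3 peaks lay 447, 334 and 166 kb away. Of 65 channel and transmitter receptor genes 15 (23.1%) had such a peak and 23 (35.4%) one with Smad3, with 2 each at Kcnq3, Cacna1e, Gria2 and Htr1b.

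**Figure D5:**
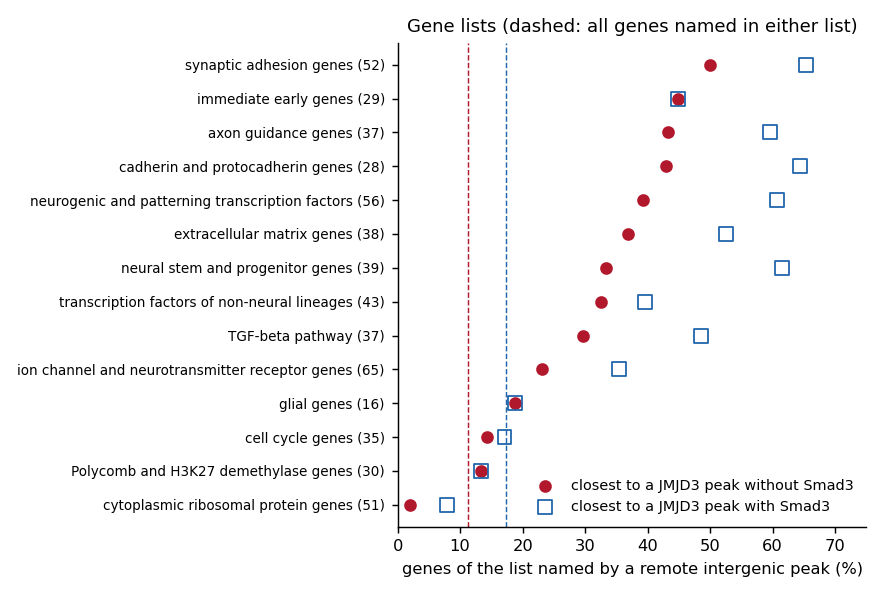
Share of the named genes of each list (x axis, percent; number of genes in brackets) that were closest to at least 1 remote intergenic JMJD3 peak without Smad3 (red circles) or with Smad3 (blue open squares); dashed lines mark the same shares over all genes named in the files, 11.3% and 17.4%. Synaptic adhesion genes reach 50% and 65.4%, Polycomb and H3K27 demethylase genes 13.3% for both, and the ribosomal list leaves out genes with such peaks that the text names.

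Progenitor and neurogenic genes had such peaks too, among larger numbers with Smad3, as did the adhesion and guidance lists. Of 39 neural stem and progenitor genes 13 (33.3%) had 1 or more and 24 (61.5%) had a remote peak with Smad3. Of the 173 remote JMJD3 peaks at this list 18.5% (13.0 to 25.1) lacked Smad3, and the interval reached the 24.9% of the whole set. Meis1, a homeobox gene of progenitors, had 7 beside 15. Of the 7, 6 lay 16.6 to 73.8 kb from Smad3 and 1 lay 9 bp from it.

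Sox2, which maintains neural progenitors, had 4, all past its end on chromosome 3, beside 9 with Smad3. They lay 69.3, 124, 134 and 440 kb from the TSS and measured 430, 360, 380 and 271 bp, with Smad3 47.5, 21.4, 11.4 and 0.199 kb away. The most distant one was thus the only one near Smad3. Nfia, a factor of the switch to glia, gave the opposite picture. Its 4 peaks, at 96859451, 96931771, 97098461 and 97170901 on chromosome 4, had Smad3 peaks 19, 50, 79 and 109 bp from their edges, so that all 4 sat at the rim of a Smad3 site.

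Of 56 neurogenic and patterning factors 22 (39.3%) had such a peak and 34 (60.7%) one with Smad3. Sox4, Myt1l, Sox11 and Irx1 had 8, 5, 5 and 4 beside 24, 9, 11 and 6. Sox4 and Sox11 act in newborn neurons and Myt1l keeps neurons in their state. At Sox4 the widths ran from 370 to 720 bp with a median of 516 bp.

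Genes of the TGF-beta pathway had such peaks at 11 of 37 (29.7%) and remote peaks with Smad3 at 18 (48.6%). Of 147 remote JMJD3 peaks at these genes, 34 (23.1%, 16.6 to 30.8) lacked Smad3, a share whose interval holds that of the whole set. Smad7, the inhibitory Smad, had 5 beside 12 with Smad3, at 75391651, 75422101, 75438211, 75614941 and 75618681 on chromosome 18. They measured 530, 410, 430, 251 and 291 bp, and the nearest Smad3 peaks were 1.85, 26.7, 40.6, 13.0 and 16.7 kb away. All stood alone, 3 of them upstream and 2 past the gene end. Smad2, which encodes a receptor-activated Smad, had 5 beside 10, with gaps from 1.75 to 89.3 kb.

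Tgfbr2, the type II receptor gene, had 4 beside 11, all upstream, at 56.0, 84.5, 327 and 501 kb, and the nearest of them lay 0.130 kb from Smad3. Acvr2a, an activin receptor gene, had 4 beside 9. The ligand gene Tgfb2 and the latent binding protein gene Ltbp1 had 3 each.

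Chromatin regulators and cell cycle genes had shares near the background. Of 30 Polycomb and H3K27 demethylase genes 4 (13.3%) had such a peak, close to the 11.3% background, and 4 had one with Smad3. Kdm6b, which encodes JMJD3 itself, had 1, of 371 bp on chromosome 11 (69284941 to 69285311), 57.9 kb upstream and 13.9 kb from Smad3. Aebp2 and Jarid2 had 3 and 1 beside 1 and 6 with Smad3. Of 35 cell cycle genes 5 (14.3%) had such a peak and 6 (17.1%) one with Smad3, and Mki67, a marker of dividing cells, had 7 beside 16. The ribosomal protein list was incomplete. Of its 51 genes Rps12 had 1 such peak and 4 genes had one with Smad3, but Rps24, Rplp1, Rps15a and Rps29, which the list leaves out, had 9, 4, 2 and 2. Rpl10l, also left out, had such peaks too. The share of 1.96% for this list therefore does not stand for ribosomal protein genes as a whole.

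Of 29 immediate early genes 13 (44.8%) had such a peak and 13 had one with Smad3. Klf6, Myc, Ier2 and Klf4 had 6, 4, 3 and 3 beside 21, 3, 4 and 14. Extracellular matrix genes had them at 14 of 38 (36.8%) and remote peaks with Smad3 at 20 (52.6%). There were 12 at Adamts5, 5 at the tenascin gene Tnc and 3 each at Adamts1 and Thbs1, beside 9, 19, 2 and 2 with Smad3. Transcription factors of other lineages had them at 14 of 43 (32.6%) and peaks with Smad3 at 17 (39.5%), among them 3 each at Runx3, Tbx18, Eya1 and Twist2. Runx3 had no remote JMJD3 peak with Smad3 and no promoter peak of either protein.

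Of 16 glial genes 3 (18.8%) had such peaks and 3 had one with Smad3. Gja1, the astrocyte gap junction gene, had 4 beside 2, all past its end, of 450, 191, 250 and 710 bp, with Smad3 233, 142, 141 and 41.7 kb away. Glul had 3 beside 10, and the glutamate transporter gene Slc1a2 had 1 and no remote peak of another kind.

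Promoter peaks at the closest genes were similarly frequent in both remote JMJD3 classes. These classes had 1430 of the 1852 genes in common. Their shares are therefore not independent, and their overlapping intervals do not compare them. A JMJD3 peak within 1 kb of the TSS was listed for 976 of the 1852 genes (52.7%, 50.4 to 55.0) and a Smad3 peak for 1247 (67.3%). For genes closest to remote peaks with Smad3 the shares were 53.5% (51.7 to 55.3) and 67.8%, and for all genes named in the files 57.1% and 73.1%. The 422 genes with JMJD3 peaks without Smad3 and none with Smad3 had lower shares, 45.5% (40.7 to 50.4) and 59.0% (54.1 to 63.7). The closest gene was protein-coding for 89.0% of the peaks and a long non-coding RNA for 6.10% (5.34 to 6.93), against 89.8% and 5.48% for remote peaks with Smad3.

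By chromosome, density ran from 0.959 peaks per Mb on chromosome 5 to 2.13 on chromosome 13 over the 19 autosomes, with a median of 1.43. The X chromosome had 0.764 per Mb. Remote JMJD3 peaks with Smad3 also differed in density, with 3.41 per Mb on chromosome 5, 6.28 on chromosome 13 and 1.42 on the X. The share of remote JMJD3 peaks without Smad3 was 21.2% to 29.9% over the autosomes and 34.9% (30.0 to 40.2) on the X. Without the peaks closest to Vmn2r121 and 4932411N23Rik, of which 31 of 44 lacked Smad3, the share on the X was 29.9% (24.8 to 35.3). A higher share on the X was not particular to remote peaks. Among all JMJD3 peaks it was 25.6% (23.2 to 28.1) on the X and 18.5% (18.2 to 18.8) on the autosomes. On the Y chromosome all 3 remote JMJD3 peaks, at Rbmy1a1, lacked Smad3.

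Peaks were more numerous in some stretches. Joined peaks count separately here and in the counts per gene, and the 3624 peaks lay in 3224 regions. The peaks fell into 1378 windows of 1 Mb, with a median of 2 per window, and 20 windows held 10 or more, with 227 peaks in all. The fullest was at 5 to 6 Mb of chromosome 18, with 16 beside 32 with Smad3 and 41 of Smad3 alone. Of the 16, 10 lay closest to the predicted gene Gm10125 and 2 each to Svil, Zfp438 and Arhgap12. The window by Rps24 and Zmiz1 on chromosome 14 held 14, those by Mir9-2, Ccnh and Tmem161b and by Enc1 and Rgnef on chromosome 13 held 13 each, and that by Vmn2r121 and 4932411N23Rik on the X held 13. In the first 4 of these windows remote JMJD3 peaks with Smad3 were more numerous, from 18 to 32, and in the X window there were 4. The median gap to Smad3 was 50.4 kb in the X window and 1.54 kb in the Enc1 window.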

How the data were processed

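The data were 2 peak lists, 1 of JMJD3 and 1 of Smad3, deposited by the authors with 1 row per peak. CASAVA, Bowtie 0.12.7, MACS 1.4 and the build mm9 are named in the submitters' processing notes. The sources used here do not give each tool's step, the thresholds or the use of the input library. Per the file headers, the deposited values are coordinates and a signed distance in bp from the closest TSS to the peak midpoint. Peak starts lie on a grid of 10 bp. No height, p-value or read number is held, so the depth is unknown.

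Overlap meant at least 1 shared bp. Gaps were counted edge to edge, peaks of a list at most 10 bp apart were joined, and a promoter peak had its midpoint within 1 kb of the TSS. Overlap functions were tested on simulated data. Python 3.11.15, pandas 2.3.3, numpy 2.4.6 and scipy 1.17.1 were used. Gene types came from a RefSeq table of GRCm38.p6 by Entrez ID (1845 of 1852 matched), and no coordinate of that build was used. The planned sequence description was not made, because no genome of the files' build was used here.

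Peaks and 14 gene lists were chosen with earlier results of these data known. The rule for named genes took the 10 genes with the most peaks, the 10 widest regions, the 10 peaks farthest from a TSS and from Smad3, the 5 fullest windows of 1 Mb, peaks at the limits, and up to 4 genes of each list. Predicted and clone-named genes were skipped by that rule. The clone-named 4932411N23Rik, the predicted Gm10125 and others were named after their values were seen. Alternatives covered the distance, overlap, gene and width conditions.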

Additional observations from a re-analysis of the deposited data

How the results depend on the processing

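No paired analysis was possible because there was 1 library per antibody, and for the same reason no replicate could be left out. Of 35 alternatives over 7 results, 18 stayed within the main interval, or within 1.5 times the main count, and 17 moved past it. The number of peaks, 3624, became 2301 with a TSS limit of 100 kb and 838 among the wider 50% of JMJD3 peaks. It lay between 2779 and 5243 in the others. The share without Smad3, 24.9%, became 25.8% beyond 100 kb, 21.2% and 19.1% with no Smad3 peak within 200 bp and 1 kb, 34.8% when under 50% of the JMJD3 peak was covered, and 11.8% among the wider 50%. The median width of 400 bp became 420 bp without peaks within 200 bp of Smad3, and 420 bp with only peaks over 1 kb from Smad3, an alternative chosen after seeing the data. The upstream share of 53.0% became 50.4% beyond 100 kb. The share within 10 kb of Smad3, 51.2%, became 47.5% beyond 100 kb and 42.5% without peaks within 200 bp. The joined share of 33.7% became 32.0% beyond 100 kb, 25.2% without peaks within 200 bp, 23.7% with only peaks over 1 kb from Smad3, and 41.1% with joining at gaps up to 1 kb. The number of closest genes, 1852, became 1165 beyond 100 kb. The lower numbers of peaks and genes follow from stricter conditions and the 41.1% from a wider join. The shares of 21.2%, 19.1% and 34.8% follow from changing which of the 14528 remote peaks count as without Smad3. The 42.5% follows from dropping the peaks within 200 bp. The cause of the other shifts was not tested. Without chromosomes X and Y, also chosen after seeing the data, the number was 3498 and the share 24.7%. Depth is unknown, so a peak absent from the Smad3 list was not listed, which does not show that Smad3 was not bound.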
